A study of Rattus norvegicus with 8 samples.

Results

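The genes described here are the neurexins Nrxn2 and Nrxn3 and the neuroligins Nlgn1, Nlgn2 and Nlgn3, 5 of the 13810 genes that could be named on the arrays. Every probe set annotated to exactly 1 of these genes was taken, which gave 10 probe sets, 7 on the array type called chip A and 3 on chip B. The family was chosen because the ratios of Nrxn3 were high and very uneven across replicates. The ratios of these genes against the reference are therefore given as a description, without a test. The cells came from the brain of rats at postnatal day 7 and were sorted by flow cytometry as A2B5/OTMP+. The labels call them perineuronal oligodendrocytes, cells of the oligodendrocyte lineage that lie against neuronal cell bodies. Total RNA of 4 biological replicates was read on chip A and on chip B, 8 samples in all, with 1 cell population and no control group. No source used here states the strain, the sex or how many animals made up a replicate, and p-values therefore measure the spread between these samples only.

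Neurexins are cell-surface proteins of the presynaptic side. Each neurexin gene makes long alpha forms and short beta forms from separate promoters, and alternative splicing of these transcripts sets which partners a neurexin can bind. Neuroligins are their classical partners across the synaptic cleft: they carry an extracellular domain related to cholinesterases but without enzyme activity, and a cytoplasmic tail that binds postsynaptic scaffolds. Nlgn1 is known mainly from excitatory synapses, Nlgn2 from inhibitory ones and Nlgn3 from both kinds. Both families are best known from neurons, but astrocytes also carry neuroligins, and oligodendrocyte precursors receive synapses from axons.

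Each deposited value is a ratio: the signal of a probe set divided by that of a reference for the same set, which no label names. A ratio of 4 therefore means more signal than in that reference, not a strongly expressed gene, and the ratios of 2 genes, or of 2 probe sets of a gene, cannot be ranked as expression levels. The median ratio per array lay between 0.903 and 0.946 on chip A and between 0.888 and 0.967 on chip B. Values named as log2 ratios below are the log2 of these ratios, given as mean ± SD over the 4 replicates (n = 4). In bulk RNA, more cells of a type and more RNA per cell cannot be told apart.

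Nrxn3 had the highest mean ratio of the family on both array types, though in replicate 3 of chip B it was the lowest of the 3 sets. On chip A its probe set 1368261_at held ratios of 6.93, 4.998, 3.35 and 5.84 in replicates 1 to 4. All 4 arrays lay well above the reference, and the highest exceeded the lowest by 2.07-fold. The mean log2 ratio was 2.35 ± 0.45, the 46th highest of 15866 probe sets on chip A. Its SD was wider than that of 88.1% of them. The family was chosen for high and uneven Nrxn3 ratios, so these ranks are a description only.

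On chip B the Nrxn3 probe set 1381676_at held ratios of 16.4, 10.5, 1.02 and 3.21 in replicates 1 to 4. Replicates 1 and 2 were far above the reference, replicate 4 was moderately above it and replicate 3 lay at the reference. The highest ratio was 16.05 times the lowest. The mean log2 ratio of 2.28 ± 1.80 was close to that of chip A (2.35), but the SD was 4 times as wide, and only 12 of the 15276 chip B probe sets had a wider one. The median SD over chip B was 0.19 on the log2 scale. High and uneven Nrxn3 ratios such as these are why the family was chosen.

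**Figure D1:**
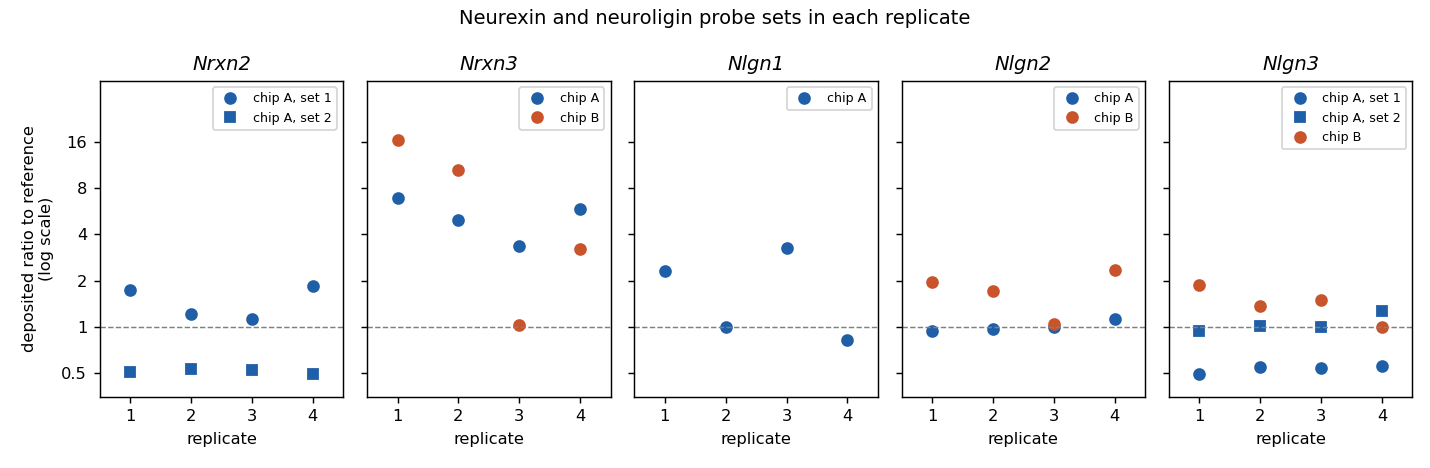
Deposited ratio to the unnamed reference (log scale) in replicates 1 to 4 for each neurexin and neuroligin probe set, with chip A in blue, chip B in orange and the dashed line at a ratio of 1. Sets 1 and 2 of Nrxn2 are 1368875_a_at and 1368876_a_at, and those of Nlgn3 are 1375494_a_at and 1387409_x_at. The Nrxn3 points of chip B run from 16.4 in replicate 1 to 1.02 in replicate 3, while those of chip A stay between 3.35 and 6.93.

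On both types the Nrxn3 order of replicates was that of the array SDs and of the counts of ratios above 2. On chip B the SD of log2 ratios over all probe sets was 0.70, 0.64, 0.56 and 0.59 in replicates 1 to 4, and 962, 706, 368 and 453 probe sets had a ratio above 2. On chip A the SDs were 0.68, 0.60, 0.60 and 0.66, and 787, 574, 556 and 673 probe sets lay above 2. In each case replicate 1 was highest and replicate 3 lowest, as for Nrxn3. On chip A the SDs of replicates 2 and 3 were nearly equal (0.601 and 0.6). Counts of ratios above 4 did not keep this order. They were 205, 79, 44 and 42 on chip B and 192, 100, 102 and 116 on chip A. Divided by the SD of its array, Nrxn3 on chip B still stood at 5.74, 5.27, 0.05 and 2.84 array SDs, and on chip A at 4.10, 3.86, 2.90 and 3.86. The part of array spread in the Nrxn3 ratios was not tested beyond this scaling.

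On chip B 52 probe sets had a ratio above 4 in both replicates 1 and 2, Nrxn3 among them, and 12 of them could be named by 1 gene. Their median ratio was 6.26 and 5.43 in these replicates, and 2.75 and 3.26 in replicates 3 and 4. Since they were taken for their values in replicates 1 and 2, lower values in the others follow from that choice, and nothing is read from the medians. In replicate 3, 15 of the 52 still exceeded 4, and 1 other probe set was as low as Nrxn3 or lower.

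**Figure D2:**
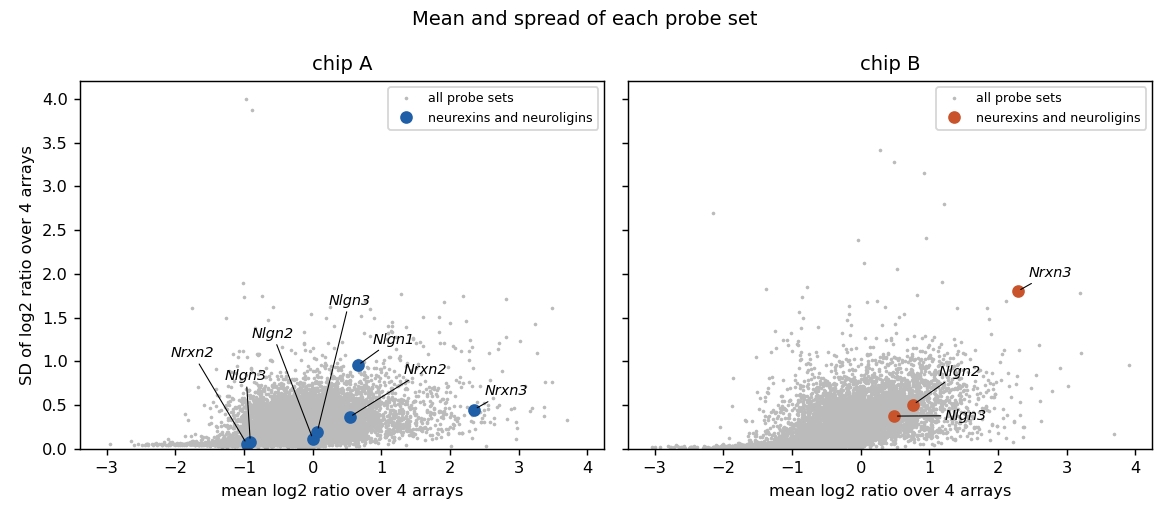
SD against mean of the log2 ratio over the 4 arrays for every probe set of chip A (left) and chip B (right) in grey, with the neurexin and neuroligin probe sets in colour. Nrxn3 lies far to the right on both array types, with an SD of 0.45 on chip A and 1.80 on chip B, and Nlgn1 is the most uneven of the other members.

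The pair of Nrxn3 probe sets disagreed most in replicate 3. The log2 difference of chip A minus chip B was -1.24, -1.07, 1.71 and 0.86 in replicates 1 to 4, so chip B was higher in the first pair of replicates and lower in the others. This difference ranged over 2.95 on the log2 scale. Over the 100 probe sets present on both array types, the corresponding range had a median of 0.29 and a maximum of 0.91, and same-numbered arrays of both types deviated together (r from 0.736 to 0.823 over these probe sets). Over 1282 genes with a single probe set of their own on each type, the median range was 0.66 and the 95th percentile 1.59. The range of Nrxn3 exceeded 99.8% of them, with 2 genes wider. As the family was chosen for the unevenness of Nrxn3, this rank is a description that the choice largely fixes. The sources used here do not say which Nrxn3 transcripts each probe set detects, and whether forms of the gene differed between replicates was not tested.

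**Figure D3:**
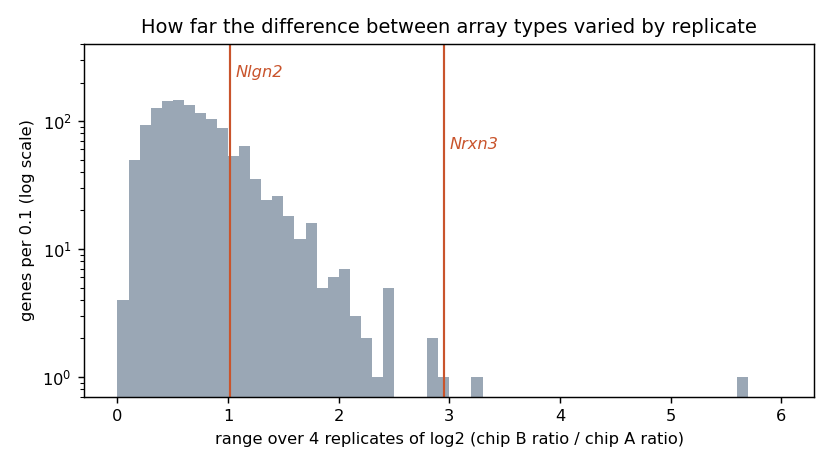
Histogram over 1282 genes of how far the log2 difference between the chip B and the chip A ratio varied over the 4 replicates, with the number of genes on a log scale. Nlgn2 (1.01) lies within the bulk of the genes and Nrxn3 (2.95) near the far end.

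The probe sets of Nrxn2 fell on opposite sides of the reference. The probe set 1368875_a_at held ratios of 1.75, 1.21, 1.13 and 1.85 in replicates 1 to 4, above 1 on every array, with a mean log2 ratio of 0.54 ± 0.36. The probe set 1368876_a_at held 0.508, 0.534, 0.526 and 0.491, which is -0.96 ± 0.05. The first exceeded the second by 1.49 ± 0.41 on the log2 scale. The platform's annotation gives both sets the same expressed sequence tag, and their suffix marks probes shared by several transcripts of a gene. The high and low arrays of the first set, replicates 1 and 4 against 2 and 3, were reversed in the second set, where all 4 values lay within a 1.09-fold range.

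Low and even ratios such as that of the second Nrxn2 set were common. Of the chip A probe sets, 2060 (13.0%) had a mean ratio under 0.6, and 62.6% of these had an SD under 0.1. Among the control probe sets of chip A, 6 of 57 had a mean ratio under 0.6 and 5 of these 6 an SD under 0.1. A low, even ratio does not show whether the probe set detected its transcript.

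Nlgn1, the neuroligin of excitatory synapses, was the most uneven neuroligin. Its only probe set, 1369041_at on chip A, held ratios of 2.30, 0.999, 3.28 and 0.82 in replicates 1 to 4. Replicates 1 and 3 were above the reference, and replicates 2 and 4 at or below it. The mean log2 ratio was 0.66 ± 0.95, and only 110 of 15866 probe sets had a wider SD. Unlike Nrxn3, Nlgn1 was highest in replicate 3.

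Of the 6 marker lists, only the microglia markers had the same order of replicates as Nlgn1. This list was singled out from the 6 for that match, so nothing is read from it. The median log2 ratio of the 14 microglia probe sets, all on chip A, was -0.46, -0.80, -0.05 and -0.83 in replicates 1 to 4. It was below 0 in every replicate, and replicates 2 and 4 were nearly equal. Of these 11 genes limma called 4 (36.4%) below a ratio of 1 (adjusted p at or under 0.05). This is near the 36.1% of all named genes with calls only below. Called above were 0, against 7.7% of all named genes, with 0 above at an unadjusted p under 0.05 too. The means of their probe sets ran from -0.77 (C1qb and P2ry12) to -0.15 (Ptprc). Their part in the Nlgn1 ratios was not tested.

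Nlgn2, the neuroligin of inhibitory synapses, lay at the reference on chip A and above it on chip B. The chip A probe set 1368895_at held 0.939, 0.966, 0.998 and 1.12 in replicates 1 to 4, a mean log2 ratio of 0.00 ± 0.11. The chip B probe set 1397705_at held 1.96, 1.72, 1.05 and 2.36, a mean of 0.77 ± 0.50. On chip B replicate 3 was again the lowest array and again near a ratio of 1, as for Nrxn3. The chip B value was higher in every replicate, by 1.06, 0.83, 0.07 and 1.08 on the log2 scale in replicates 1 to 4. The range of this difference, 1.01, exceeded that of 78.6% of the 1282 genes.

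Nlgn3, found at both excitatory and inhibitory synapses, had probe sets below, at and above the reference. The chip A probe set 1375494_a_at held 0.491, 0.544, 0.541 and 0.556 in replicates 1 to 4, a mean log2 ratio of -0.91 ± 0.08. This too is a low, even ratio. The chip A probe set 1387409_x_at held 0.936, 1.02, 0.991 and 1.28, a mean of 0.07 ± 0.20. Its suffix marks probes that may also match other transcripts. On chip B the probe set 1380048_at held 1.87, 1.37, 1.49 and 1, a mean of 0.48 ± 0.37. The value of replicate 4 was exactly 1, as for 7.61% of chip B probe sets on that array. Replicate 4 was the highest array for both chip A sets and the lowest for the chip B set.

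Across the family no replicate was high or low throughout. Of the 10 probe sets, 5 were highest in replicate 4, 3 in replicate 1 and 1 each in replicates 2 and 3, while 4 were lowest in replicate 3, 3 each in replicates 1 and 4 and 0 in replicate 2. Of the 8 Nrxn3 values, from 4 replicates on each of 2 array types, 7 exceeded a ratio of 2, against 3 of 24 neuroligin values. Per array, 556 to 787 of all 15866 probe sets on chip A and 368 to 962 of 15276 on chip B exceeded 2. The family was chosen because Nrxn3 was high, so that choice largely fixes this contrast. Nrxn3 on both types, the first Nrxn2 set and the chip B set of Nlgn2 were above 1 on all 4 arrays. The second Nrxn2 set and 1375494_a_at of Nlgn3 were below 1 on all 4.

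In limma fits over all probe sets of an array type, a probe set counted as called if its log2 ratio differed from 0 with a Benjamini-Hochberg adjusted p at or under 0.05. On chip A 9.21% of all probe sets were called higher and 30.1% lower, and of the 7 neurexin and neuroligin sets 2 were called higher (Nrxn3 and the first Nrxn2 set) and 2 lower (the second Nrxn2 set and 1375494_a_at of Nlgn3). On chip B 5.08% of all probe sets were called higher and 27.1% lower. Of the 3 sets there 0 were called in limma, 0 also with a trended, robust prior, while all 3 had an unadjusted p under 0.05 on the higher side. Over both array types 1742 of 13810 named genes were higher by an unadjusted p. The share for chip B probe sets alone is not given here, so nothing is read from these 3. Without replicate 3, 4 of the 10 sets were called higher, as the chip B sets of Nrxn3 and Nlgn2 were added. Without replicate 1, and likewise with the trended, robust prior, the first Nrxn2 set was lost and only Nrxn3 on chip A was called higher. Without replicate 4 the first Nrxn2 set was also lost, while Nrxn3 on chip A stayed and the Nlgn3 set of chip B was added. Since the family was chosen on these ratios, the counts are a description only.

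The genes with ratios most like those of Nrxn3 on chip A were found by the root mean square difference of log2 ratios over the 4 arrays, 1 probe set per gene. Nearest was Rgs7, a regulator of G-protein signalling in neurons, at a difference of 0.23, with ratios of 5.51, 5.91, 2.91 and 5.44. Next came the claudin gene Cldn10 (0.24), the transcription factor gene Klf15 (0.35), the NMDA receptor subunit gene Grin2c (0.35), the sorting receptor gene Sorl1 (0.36) and the semaphorin receptor gene Plxnb1 (0.36). All 6 had ratios of 2.88 or more on every array, which their choice for nearness to Nrxn3 largely fixes. By the shape alone, after each probe set's mean was subtracted, 0 of these 6 were among the nearest 6. On chip B, looked at after the values were seen, no named gene came as close. The nearest, the integrin gene Itgb6, differed by 0.98 with ratios of 7.00, 13.8, 1.94 and 7.07, and Runx1t1, a transcriptional corepressor gene, by 1.13 with 6.32, 3.79, 1.25 and 1.61.

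Among extracellular partners, genes lay on both sides of the reference. Of 33 listed genes 21 had a probe set, and 6 had calls only above a ratio of 1, 6 only below, and 3 both. Over all 13810 named genes 7.7% had calls only above, 36.1% only below and 1.52% both. The partners had 36 probe sets for 21 genes, against 20347 for 13810, and more probe sets give more chances of a call. The median log2 ratio of the list's probe sets was 0.05, against -0.13 over all named ones.

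Among genes with calls only above, the highest was Mdga2, whose product binds neuroligins and blocks their contact with neurexins, at 0.96 ± 0.38 (limma adjusted p = 0.0104). Mdga1, its relative, had a set at -1.83 ± 0.06 (limma adjusted p = 9.7e-05) and another at 0.07 ± 0.12 (0.416). The neurexin-binding receptor gene Adgrl1 (latrophilin) stood at 0.93 ± 0.49 (limma adjusted p = 0.0145), with ratios of 2.18, 1.44, 1.45 and 2.87. Sparcl1 encodes hevin, an astrocyte protein that bridges neurexins and neuroligins. It stood at 0.70 ± 0.13 (limma adjusted p = 0.00139), with even ratios of 1.65, 1.64, 1.78 and 1.44. The calsyntenin gene Clstn1 stood at 0.65 ± 0.19 and Car11, a secreted carbonic anhydrase-like protein gene, at 0.56 ± 0.35 in its called set. The other Car11 sets, at 0.67 ± 0.45 and 0.05 ± 0.67, were not called. The call of Car11 was lost without replicate 2, 3 or 4 and with the trended, robust prior (limma adjusted p from 0.0769 to 0.136), and that of Adgrl1 without replicate 1 (0.051).

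Lower calls of this group included Grid1, the glutamate receptor delta subunit that binds neurexins through cerebellins, at -1.59 ± 0.05. C1ql3, a secreted C1q-like synaptic protein gene, stood at -1.48 ± 0.04 in the lowest of 5 sets and at 0.12 ± 0.30 in the highest. The neurexin ligand gene Car10 stood at -0.75 ± 0.33 and the calsyntenin gene Clstn3 at -0.59 ± 0.05. Limma adjusted p-values of these 4 genes were at most 0.00902. Several of these values were low and even, as for the Nrxn2 and Nlgn3 sets above. The 3 genes with calls both ways, named after their values were seen, were the neurexophilin gene Nxph3 (0.90 ± 0.44 and -1.03 ± 0.07), the dystroglycan gene Dag1 (1.24 ± 0.72 to -0.62 ± 0.08) and Adgrl2 (0.37 ± 0.24 and -0.36 ± 0.06).

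Intracellular scaffold genes were uncalled about as often as all named genes. Of 28 listed genes 25 were measured, and 13 of them (52%) were uncalled, against 54.6% of all named genes. Calls only above came from 2 (8%), only below from 8 (32%) and both ways from 2 (8%). Over all named genes these shares were 7.7%, 36.1% and 1.52%. The median log2 ratio was 0.03 over 53 probe sets. With arrays centred on their medians the counts were 3, 7 and 3. Dlgap1, a postsynaptic density protein gene, was highest at 1.38 ± 0.21 (limma adjusted p = 0.000292), with ratios of 2.86, 2.61, 2.12 and 2.90. Its other 3 sets stood between 0.07 and 0.34 and were not called. Shank2 stood at 0.60 ± 0.40 (limma adjusted p = 0.0351), a call lost without replicate 1, 2 or 4, and its other set at -0.05. With each gene's median probe set 0 scaffold genes were called higher.

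Dlg4 encodes PSD-95, the scaffold that binds neuroligin tails at excitatory synapses. Its lowest set stood at -0.98 ± 0.07 (limma adjusted p = 0.000228) and the others at -0.30 ± 0.33 (0.141) and -0.01 ± 0.07 (0.948). Lhfpl4, which links GABA-A receptors to Nlgn2, stood at -1.66 ± 0.32 and -1.65 ± 0.02, Dlgap3 at -1.30 ± 0.06, Dlgap2 at -1.15 ± 0.06 and the adherens junction scaffold gene Afdn at -0.64 ± 0.06, with limma adjusted p-values of at most 0.00094. The other Afdn sets, at 0.22 and -0.05, were not called. Gphn, which encodes gephyrin, the scaffold of inhibitory synapses and a partner of Nlgn2, stood at 0.03 ± 0.41 (limma adjusted p = 0.903). Cask, a scaffold of neurexin tails, stood at 0.25 ± 0.32 (limma adjusted p = 0.203) in its higher set. Gphn and Cask were named after their values were seen.

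**Figure D4:**
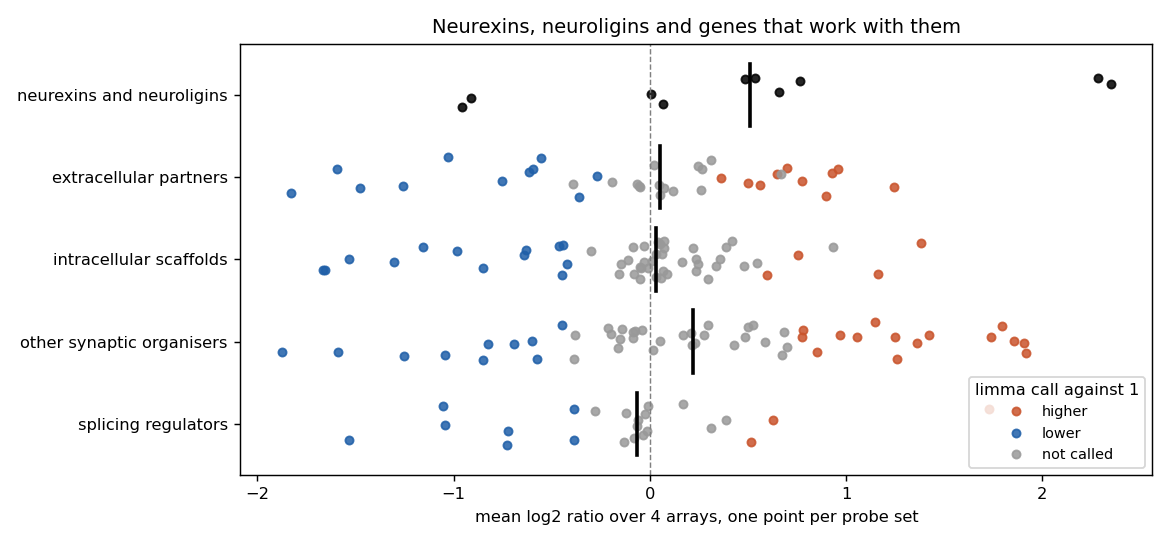
Mean log2 ratio over 4 arrays of each probe set, by gene group, with a black bar at each group's median. Points of the gene groups are orange where limma called them above a ratio of 1, blue below and grey where not called, and the neurexin and neuroligin points are black without a call. The family's median is 0.51, and those of the groups are 0.05, 0.03, 0.22 and -0.06.

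Other synaptic organisers included several high ratios. Of 40 listed genes 28 were measured, and 7 (25%) had calls only above, 7 (25%) only below and 3 (10.7%) both. Over all named genes these shares were 7.7%, 36.1% and 1.52%. The median log2 ratio was 0.22 over 52 probe sets. Nptx1, a secreted pentraxin gene that clusters AMPA receptors, stood at 1.92 ± 0.43 (limma adjusted p = 0.00068), with ratios of 4.52, 3.79, 2.48 and 4.82. As for Nrxn3 on chip A, replicate 3 was its lowest. The receptor phosphatases of the LAR family are presynaptic organisers in parallel with neurexins. Ptprf stood at 1.86 ± 0.29 and 1.79 ± 0.13 in its pair of sets, both called. Ptprd stood at 1.42 ± 0.71 on chip B, with ratios of 4.99, 3.09, 1.61 and 2.07, and at 0.85 ± 0.21 and 0.78 ± 0.34 on chip A. That chip B call was lost without replicate 2 or 4. Another chip B set of Ptprd, at 0.53 ± 0.80, was not called (limma adjusted p = 0.295). Ptprs, named after its values were seen, had calls both ways, from 1.74 ± 0.53 to -0.60 ± 0.15.

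The neurotrophin receptor gene Ntrk3, whose product also binds Ptprs, held ratios of 3.77, 1.14, 7.01 and 6.57. Its mean of 1.91 ± 1.21 was called (limma adjusted p = 0.0244), but not without replicate 1, 3 or 4. Gpc6, an astrocyte-secreted glypican gene that promotes excitatory synapses, stood at 1.36 ± 0.55 on chip A and 1.26 ± 0.19 on chip B, with another chip B set at 0.01. Lowest were Thbs2, an astrocyte-secreted thrombospondin gene, at -1.88 ± 0.48 and the adhesion genes Cadm4 at -1.59 ± 0.04 and Cadm3 at -1.26 ± 0.11, with another Cadm3 set at 0.43 ± 0.37. Lrfn5 stood at -0.82 ± 0.08, with another Lrfn5 set at -0.16 ± 0.29. The pentraxin receptor gene Nptxr stood at -0.69 ± 0.06, with another Nptxr set at 0.68 ± 0.71. The called sets of these 5 genes had limma adjusted p-values of at most 0.00226.

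Splicing regulators of neurons lay on both sides of the reference. Of 12 listed genes 10 were measured, and 2 had calls only above, 5 only below and 1, Rbfox2, both. Over all named genes 7.7% had calls only above, 36.1% only below and 1.52% both. The 5 genes with calls only below were 3 with arrays centred on their medians, without replicate 2 and without replicate 4. The median log2 ratio was -0.06 over 23 probe sets. Khdrbs1 and Khdrbs3 encode STAR-family proteins that regulate an alternative exon of neurexin transcripts. They stood at -0.39 ± 0.26 (limma adjusted p = 0.045) and -0.38 ± 0.22 (0.0315) in their called sets. Both calls were lost with arrays centred on their medians (limma adjusted p = 0.138 and 0.124) and without replicate 2, 3 or 4. The other Khdrbs3 set, on chip B, stood at 0.39 ± 0.32, and the relative Khdrbs2, named after its values were seen, at -0.03 ± 0.15 (limma adjusted p = 0.771). Celf4 was the highest at 1.73 ± 0.51 (limma adjusted p = 0.0017), with ratios of 4.30, 4.67, 2.36 and 2.55. Celf2 stood at 0.63 ± 0.36 in the highest of 4 sets, a call lost without replicate 1, 3 or 4, and its other 3 sets, from -0.13 to 0.17, were not called. Nova2 stood at -1.53 ± 0.05 in a set and -0.02 ± 0.01 in the other, and Rbfox1 at -1.05 ± 0.06 in the lowest of 6 sets. The chip A set of Rbfox1, at -0.73 ± 0.21, was also called, and its remaining sets, from -0.12 to -0.01, were not. Ptbp1, which represses neuronal exons, stood at -0.72 ± 0.28.

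Markers of the cell types that the sort could hold were read on the same scale. Over all named genes 7.7% had calls only above a ratio of 1, 36.1% only below and 1.52% both. Of 24 neuron genes 9 (37.5%) had calls only above, 1 (4.17%) only below and 2 both. Of 17 astrocyte genes the counts were 10 (58.8%), 2 (11.8%) and 3. Of 14 genes of oligodendrocyte precursors and the lineage 4 (28.6%) were called above and 1 (7.14%) below. Of 16 myelin genes limma called 0 above (1 by unadjusted p under 0.05) and 7 (43.75%) below, against 36.1% of all named genes. Of 9 endothelial genes limma called 0 either way, and 0 reached an unadjusted p under 0.05. Median log2 ratios per list were 0.09 for neurons, 0.95 for astrocytes, 0.09 for the lineage, -0.11 for myelin and 0.03 for endothelial cells. Probe set means ran from -0.97 to 2.32 for neurons (both Gad1), from -1.73 (Sox9) to 2.82 (Aqp4) for astrocytes and from -0.88 (C1ql1) to 1.74 (Cspg5) for the lineage. The labelled cell type is thus not marked by uniformly high ratios of its lineage genes, which ratios to an unnamed reference need not show.

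Taken over both array types, none of the 6 marker lists had the replicate order of Nrxn3 on chip B. Most of their probe sets were on chip A: 32 of 38 for neurons, 27 of 29 for astrocytes and all 14 for microglia. For the lineage it was 12 of 18, for myelin 19 of 26 and for endothelial cells 11 of 13. These medians mostly reflect chip A, so nothing is read from the mismatch with a chip B order. The neuron median over both array types was 0.39, 0.09, 0.26 and 0.28 in replicates 1 to 4, and the astrocyte median 0.94, 0.76, 1.23 and 0.94. The lineage median was 0.13, -0.41, 0.37 and 0.71, the myelin median -0.14, -0.32, 0.00 and -0.09, and the endothelial median -0.44, 0.50, 0.27 and 0.29. Over all named genes it was -0.18, -0.13, -0.08 and -0.14. The part of any cell type in the ratios of Nrxn3, Nlgn1 or the other members was not tested.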

How the data were processed

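RNA was prepared with Qiagen RNAeasy and labelled with biotin by an Affymetrix small-sample method, per the labels' protocols. The submitters' processing notes name RMA without a version. The authors deposited linear ratios to a reference that is not named. How it was made, the scale's floor and the probe sequences are not given in the sources used here. Ratios were put on the log2 scale. Control probe sets were left out, 57 per array type. Gene names came from the platform's annotation (12783 single-gene probe sets on chip A, 7564 on chip B), and gene IDs of 12748 and 7524 were in the RefSeq table for assembly GRCr8, with 0 symbols updated.

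Each array type was fitted alone with limma 3.58.1 in R 4.3.3 (an intercept, eBayes, two-sided against a ratio of 1, Benjamini-Hochberg adjustment at 0.05). The fit was tested on simulated data. A gene was called by any of its single-gene probe sets. Alternatives were centring on array medians, a trended, robust prior, leaving out each replicate and each gene's median probe set. Scaling each array to 1 spread was added after the values were seen. Named are all members, up to 5 genes per partner list and direction, the 6 genes nearest to Nrxn3 and the ends of marker lists; exceptions are stated. The members and lists were chosen with earlier results of these data known. Over the 100 probe sets on both array types, deviations of same-numbered arrays correlated with r from 0.736 to 0.823, those of other numbers from -0.5 to -0.013. The arrays' number, 4 per type, limits the precision, and depth has no meaning for them.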

Additional observations from a re-analysis of the deposited data

Results flagged for a closer look

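Among the 10 neurexin and neuroligin probe sets and the 34 sets of named partner genes, 1 had an array far from the others. The chip B set 1377958_at of Lhfpl4, a partner of Nlgn2, held a ratio of 0.439 in replicate 2 against 0.275 to 0.287 in the other replicates, with a gap of 0.909 of the whole range. Its other set was even, from 0.312 to 0.324. Chance marks about 1 in 20 such groups.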

How the results depend on the processing

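Centring on array medians moved 3 even member sets by more than their SD: the second Nrxn2 set to -0.84, Nlgn2 on chip A to 0.12 and 1375494_a_at of Nlgn3 to -0.79. Of all calls, the higher ones made up 23.5% before and 33.7% after centring (chip A) or 15.8% and 19.5% (chip B). Centring took the splicing regulators called lower from 5 to 3. Member sets called higher numbered 1 with a trended, robust prior and 1 to 4 with a replicate left out. With a replicate left out, scaffolds called higher numbered 1 to 2, splicing regulators called higher 1 to 2 and called lower 3 to 5. With each gene's median probe set, 0 scaffolds and 1 splicing regulator were called higher. None of the 34 named partner sets changed direction with centring, the trended prior or a replicate left out, and 27 to 33 kept their call. No paired analysis was possible because no test compares the array types as groups; the 100 probe sets on both served only to check the replicate numbers.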
